A study of Mus musculus with 2 samples.

Results

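The GATA factors are transcription factors that bind GATA sites in DNA through a pair of zinc fingers, and the FOG proteins are zinc finger cofactors that bind the GATA factors rather than DNA. The group described here comprises the 6 mouse genes Gata1 to Gata6 and the 2 FOG genes, Zfpm1 (FOG1) and Zfpm2 (FOG2). They were chosen by gene symbol and are 8 of the 43346 mouse genes in the deposited tables, with 24 of the 103639 transcripts. In the blood lineage GATA2 is known for its role in stem and progenitor cells, and GATA1 for red cell, megakaryocyte and mast cell differentiation. GATA1 takes over many sites from GATA2 as red cells mature, a process that depends on FOG1. GATA3 is best known from T cells, and GATA4, GATA5, GATA6 and FOG2 from heart, gut and other tissues outside the blood.

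Polyadenylated RNA from G1E-ER4 cells was sequenced in 2 libraries of 1 group, labelled biological replicates 1 and 2. G1E-ER4, an immortalised line of mouse red cell progenitors labelled male, lacks a functional endogenous Gata1 gene and carries GATA1 fused to the hormone-binding part of the estrogen receptor. All cells had received 10 nM 17beta-estradiol, which switches the fusion on, for 3 h. No untreated library was analysed here, so the values are levels after estradiol and not responses to it. Both libraries carry 1 cell sample record in the labels. Their spread, and any difference between them, may therefore be technical only. The p-values below set such differences against counting error and do not measure variation between replicates.

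Replicate 2 was deeper, with 57853617 expected counts against 31126956 in replicate 1. Most genes differed between the libraries. Of 10635 genes with a summed count of at least 20, 8610 lay beyond counting noise and 2863 were at least 2-fold apart. The line's erythroid label was checked on 12 red cell markers, all of which reached 1 TPM in both libraries. TPM is a measure of transcript abundance from which transcript length and library depth are divided out. The 4 globin genes among them (Hba-a1, Hba-a2, Hbb-bs and Hbb-bt) summed to 2588 TPM for replicate 1 and 18851 TPM for replicate 2. By the scaled counts described below, all 4 were at least 2-fold higher in replicate 2. Hba-a2 was under 2-fold with total counts, and was 1.71-fold higher by TPM with a pseudocount of 1. The other 8 markers summed to 1205 TPM for replicate 1 and 745 TPM for replicate 2, the opposite direction. Of these 8, the regulator gene Klf1 (786 and 350.5 TPM) and the transferrin receptor gene Tfrc (86.5 and 20.6 TPM) were called higher in replicate 1 and 5 were called higher in replicate 2.

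Nearly all of the group's TPM was assigned to 4 transcript models: the main Gata1 transcript (ENSMUST00000033502), the proximal and distal transcripts of Gata2 (ENSMUST00000015197 and ENSMUST00000170089) and the main Zfpm1 transcript (ENSMUST00000054052). These models held 99.3% of the members' summed TPM in replicate 1 and 98.1% in replicate 2 (98.7% ± 0.907, SD, n = 2). The 150 bases before the RefSeq start on GRCm38.p6 are shown for 3 of the 4 models, to place the annotated starts that the transcript results refer to. The tables do not measure where RNA starts, and for Gata1 the fragments may include those of the fusion, whose own promoter is not given in the sources used here. The Gata1 window is chrX:7967911-7968060 on the minus strand, the distal Gata2 window is chr6:88193741-88193890 on the plus strand, and the Zfpm1 window is chr8:122281991-122282140 on the plus strand. Capitals mark matches, on either strand, to 4 GATA forms (AGATAA and AGATAG as well as TGATAA and TGATAG), to the motif CACCC and to the motif CCAAT.
Gata1: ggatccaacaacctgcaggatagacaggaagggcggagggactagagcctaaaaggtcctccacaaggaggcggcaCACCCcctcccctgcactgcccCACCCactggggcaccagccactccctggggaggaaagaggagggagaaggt
Gata2 distal start: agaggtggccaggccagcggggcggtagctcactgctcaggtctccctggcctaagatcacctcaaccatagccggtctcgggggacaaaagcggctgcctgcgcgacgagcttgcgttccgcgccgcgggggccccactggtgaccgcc
Zfpm1: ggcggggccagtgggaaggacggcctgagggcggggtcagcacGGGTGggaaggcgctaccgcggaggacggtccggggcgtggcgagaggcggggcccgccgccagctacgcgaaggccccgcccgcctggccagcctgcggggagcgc

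None of the 3 windows holds any of the 4 GATA forms, which occur in 16.0% of the 32817 RefSeq windows of the same length. Gata1 has 2 CACCC matches, the recognition core of Krüppel-like factors, beginning 74 and 52 bases before the start, and Zfpm1 has 1 on the opposite strand beginning 107 bases before it. CACCC occurs in 37.4% of all windows. The distal Gata2 window has no match to any of the 6 motifs. The corresponding window of the proximal Gata2 start, which overlaps the first exon of the proximal transcript in GENCODE M21 and is not printed for that reason, has 2 CCAAT matches, a motif found in 24.5% of windows. The matches describe letters in these windows and were not tested for binding.

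Of the 8 members, 4 reached 1 TPM in both libraries: Zfpm1, Gata1, Gata2 and Gata3. Over all mouse genes the share that did so was 20.2%. The other 4 members, Gata4, Gata5, Gata6 and Zfpm2, had at most 1 count in any library. By the mean of both libraries Zfpm1 was highest, followed by Gata1, Gata2 and Gata3. The order of Gata1 and Gata2 differed between the libraries.

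**Figure D1:**
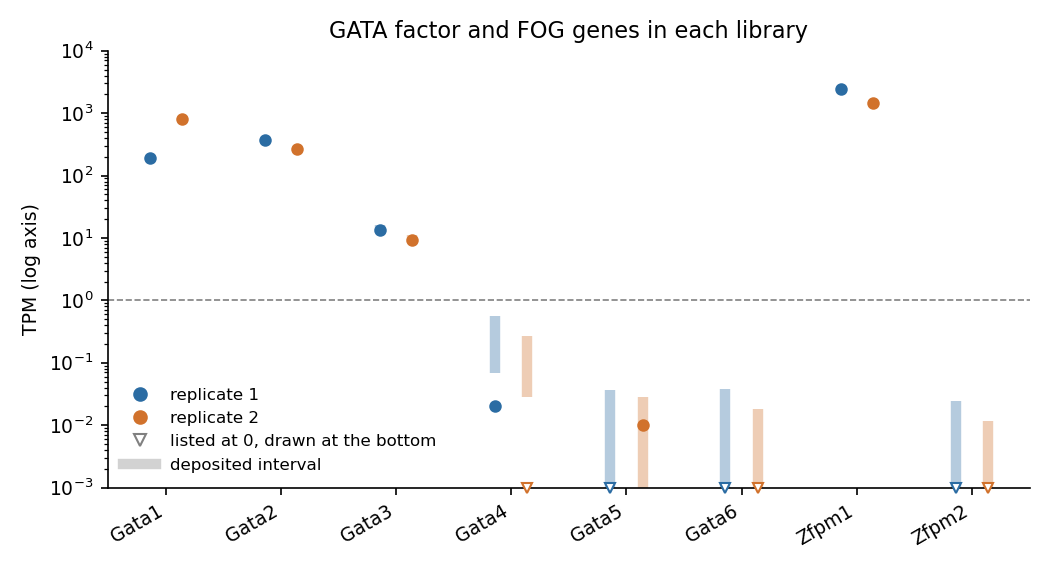
Level of each member in TPM on a log axis, with 1 point per library and bars for the interval deposited with each value; open triangles mark values listed at 0 and the dashed line is 1 TPM. Zfpm1, Gata1, Gata2 and Gata3 lie above the line in both libraries and the other 4 members lie below it.

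Gata1 (chromosome X, 7959260 to 7978071, minus strand), the gene disrupted in this line and resupplied as the fusion, had 8329 counts in replicate 1 and 73274 in replicate 2. Its level was 190.3 TPM for replicate 1 and 799 TPM for replicate 2 (495 TPM ± 430, SD, n = 2). The deposited intervals were 181 to 189 TPM and 781 to 793 TPM. These intervals surround the authors' posterior mean, so a TPM value can lie just outside its own interval. Gata1 was thus lower in replicate 1 than in replicate 2, and the intervals did not overlap. The tables do not separate fragments of the fusion from fragments of the disrupted locus, and the 2 sources cannot be told apart. Nor can RNA per cell and the number of cells that express a gene be told apart in bulk RNA. Gata1 TPM, which enters the ratios between genes below, was scaled to the lengths of the annotated transcripts. Whether those lengths hold for RNA of the fusion was not tested.

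Gata2 (chromosome 6, 88193891 to 88207032, plus strand), the progenitor GATA factor, had 28446 counts in replicate 1 and 43676 in replicate 2. This gave 374 TPM for replicate 1 and 271 TPM for replicate 2 (323 TPM ± 72.8, SD, n = 2), with intervals of 359 to 368 TPM and 265 to 269.8 TPM. Gata2 was the higher of the pair in replicate 1 and Gata1 in replicate 2. On TPM with a pseudocount of 1, Gata1 over Gata2 gave a log2 ratio of -0.97 in replicate 1 and 1.56 in replicate 2 (0.29 ± 1.79, SD, n = 2). The mean of this ratio lies within the spread of the libraries, which put the 2 genes in opposite order. An exact sign-flip test of 2 values cannot give a two-sided p under 0.5.

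Gata3 (chromosome 2, 9857078 to 9890034, minus strand), the T cell GATA factor, was the lowest of the detected members. It had 287 counts in replicate 1 and 550 in replicate 2, which gave 13.4 TPM and 9.22 TPM (11.3 TPM ± 2.96, SD, n = 2). The intervals were 11.8 to 16.3 TPM and 8.24 to 11.0 TPM and did not overlap. Of 7 T cell markers none reached 1 TPM in both libraries, 4 had no count in either (Cd3e, Cd4, Cd8a and Tcf7), and the highest was the kinase gene Lck at 0.25 TPM in replicate 1 and at 2.17 TPM in replicate 2. The summed level of these markers was 0.35 TPM for replicate 1 and 2.24 TPM for replicate 2.

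Zfpm1 (chromosome 8, 122282141 to 122337251, plus strand), which encodes FOG1, had 195468 counts in replicate 1 and 238772 in replicate 2. Its level was 2427 TPM for replicate 1 and 1438 TPM for replicate 2 (1933 TPM ± 699, SD, n = 2), with intervals of 2347 to 2369 TPM and 1410.5 to 1424 TPM. By TPM it ranked 40 among all mouse genes in replicate 1 and 99 in replicate 2. The FOG1 transcript exceeded that of its partner Gata1 12.8-fold in replicate 1 and 1.80-fold in replicate 2.

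Zfpm1 was also higher than all GATA genes together. The sum of the 6 GATA genes was 578 TPM for replicate 1 and 1079 TPM for replicate 2, and Zfpm1 stood at 4.20 and 1.33 times that sum. Gata1 made up 32.9% of the GATA sum in replicate 1 and 74.0% in replicate 2. The share of Gata2 was 64.8% in replicate 1 and 25.1% in replicate 2, and that of Gata3 was 2.32% and 0.854%. The ratio of Zfpm1 to Gata2 varied less than that of Gata1 to Gata2. On the log2 scale it stood at 2.69 for replicate 1 and 2.40 for replicate 2 (2.55 ± 0.21, SD, n = 2). These are transcript levels, and protein was not measured.

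The remaining members were at the limit of the data. Gata4 (chromosome 14, 63198922 to 63271692) had 1 count in replicate 1 and 0 in replicate 2, and Gata5 (chromosome 2, 180325133 to 180334699) had 0 and 1. Gata6 (chromosome 18, 11052064 to 11085635) and Zfpm2 (chromosome 15, 40655035 to 41104592), which encodes FOG2, had no count in either library. A count of 0 allows up to 3 counts, or 9.64e-06% of the counts in replicate 1 and 5.19e-06% in replicate 2, for counting error only. The upper bounds of the deposited intervals were 0.559 TPM and 0.270 TPM for Gata4, 0.0371 TPM and 0.0287 TPM for Gata5, 0.0384 TPM and 0.0184 TPM for Gata6, and 0.0243 TPM and 0.0117 TPM for Zfpm2. These members were not detectable at this depth, and no fold is given for them. None of 8 heart and endoderm markers reached 1 TPM in either library, with summed levels of 0.87 TPM and 0.64 TPM.

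The 4 detected members were then compared between the libraries by scaled counts. Each gene was tested by a two-sided exact binomial test that allowed for depth through TMM factors (edgeR), with Benjamini-Hochberg adjustment over 10635 genes. The test asks only whether 2 libraries differ beyond counting noise. By this test 3 of the 4 were called, and 1 was at least 2-fold apart. Over all genes tested 81.0% were called, 40.2% as higher in replicate 1 and 40.7% as higher in replicate 2. At least 2-fold apart were 26.9% of all genes, 8.71% as higher in replicate 1 and 18.2% as higher in replicate 2. A count of 3 in 4 is close to that background, so the sizes of the differences are described.

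Gata1 was 5.12-fold higher in replicate 2 (log2 ratio 2.36), with an adjusted p of the exact test too small to be represented. A larger ratio in either direction was found for 557 of the 10635 genes, or 5.24%. Zfpm1 was 1.41-fold higher in replicate 1 (log2 ratio -0.49), also with an adjusted p too small to be represented, and 58.1% of genes had a larger ratio. Gata2 was 1.12-fold higher in replicate 1 (log2 ratio -0.16, adjusted p of the exact test 1.51e-48), and 85.5% of genes had a larger ratio. Gata3 was not called (log2 ratio 0.16, adjusted p of the exact test 0.165). The median log2 ratio was -0.003 for the members tested and -0.002 for all genes.

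The measures disagreed for Gata3. Its scaled counts were higher in replicate 2, whereas its TPM was higher in replicate 1 and the TPM intervals were apart, as were those of all 4 detected members and of 72.9% of genes tested. The effective length by which the authors divided Gata3 counts was 862.5 bases in replicate 1 and 1139 bases in replicate 2.

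**Figure D2:**
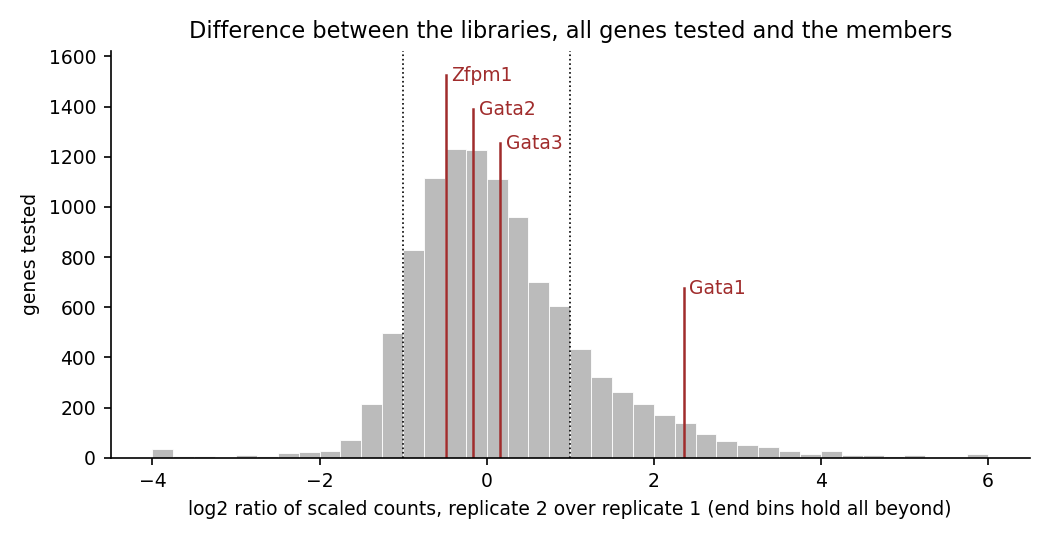
Histogram of the log2 ratio of scaled counts, replicate 2 over replicate 1, for the 10635 genes tested, with red lines at the 4 detected members and dotted lines at 2-fold. Gata1 at 2.36 lies in the right tail, and Zfpm1, Gata2 and Gata3 lie within 2-fold of 0.

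The difference between the libraries also moved with base composition. When genes were ordered by the GC content of their most abundant transcript and divided into 10 equal classes, the median log2 ratio ran from -0.52 in the lowest class to 0.36 in the seventh and -0.21 in the highest. Gata1 (55.1% GC, the seventh class) lay 1.99 above the median of its class. Gata2 lay 0.29 below its class (log2 difference -0.29), Zfpm1 0.28 below (log2 difference -0.28) and Gata3 0.36 above. The part of GC content in these differences was not tested further.

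Each detected member had the same most abundant transcript, by TPM, in both libraries, while this transcript changed in 27.0% of the 6389 genes with several transcripts that reached 1 TPM in both libraries. A shift of at least 20 percentage points in the share of a transcript occurred in 2 of the 4, Gata2 and Gata3, against 42.6% of those genes. Of the 24 member transcripts, 10 had no count in either library and 9 had a summed count of at least 20. The deposited intervals were apart for 6 of these 9, and for 62.3% of all transcripts with such counts. The 10 without a count were 1 of Gata1, 2 of Gata3, 5 of Gata4 and the single models of Gata6 and Zfpm2. The other 5 had few counts: ENSMUST00000128449 of Gata1 had 1.10 and 1.03, ENSMUST00000147533 of Gata3 had 0 and 1, ENSMUST00000121312 of Gata4 had 1 and 0, the single Gata5 model had 0 and 1, and ENSMUST00000176883 of Zfpm1 had 0 and 7.35.

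Gata2 is known to be transcribed from a distal promoter used mainly in blood progenitors and from a proximal promoter used more widely. The distal and proximal transcripts are named here by their annotated starts, and where their RNA starts was not measured. They share all 5 coding segments (1440 coding bases) and differ in the first exon, so both encode the same protein. The proximal transcript had 236 TPM for replicate 1 and 229 TPM for replicate 2 (233 TPM ± 4.91, SD, n = 2), and its intervals of 223 to 236 TPM and 221 to 230.2 TPM overlapped. The distal transcript had 138 TPM for replicate 1 and 42.1 TPM for replicate 2 (90.1 TPM ± 67.9, SD, n = 2), and its intervals of 128 to 141 TPM and 37.4 to 45.9 TPM were apart.

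By TPM, then, the lower Gata2 value of replicate 2 lay in the distal transcript, which was 3.28 times as high in replicate 1, while the proximal transcript was within 1.03 times. The transcripts were not compared by scaled counts, so this reading holds for TPM only. The proximal transcript held 63.1% of Gata2 TPM in replicate 1 and 84.5% in replicate 2. A shift as large as these 21.4 points was seen in 40.4% of genes with several transcripts. The deposited model of the proximal transcript is 3241 bases long and that of M21 is 3571 bases, and the RefSeq proximal start lies 330 bases inside the M21 first exon, 4773 bases from the distal start.

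**Figure D3:**
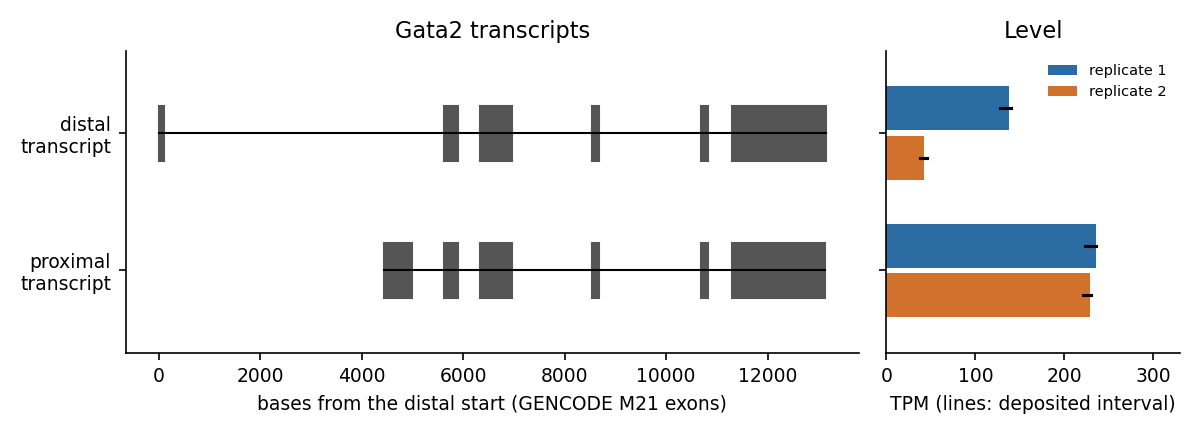
Left, exons of the 2 Gata2 transcripts in M21 by distance in bases from the distal start; right, the TPM of each transcript in each library, with lines for the deposited intervals. The bars of the proximal transcript are close at 236 and 229 TPM, and those of the distal transcript stand at 138 and 42.1 TPM.

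Gata3 transcripts differed in share by up to 27.9 points, a shift matched or exceeded in 31.2% of genes with several transcripts. A short coding model (ENSMUST00000130615) of 674 bases, which starts 11434 bases upstream of the full-length transcript (ENSMUST00000102976), held 77.8% of Gata3 TPM in replicate 1 and 49.9% in replicate 2. Its level was 10.4 TPM and 4.60 TPM. The full-length transcript, with 1329 coding bases, had 1.69 TPM for replicate 1 and 2.20 TPM for replicate 2. A noncoding model (ENSMUST00000153509) had 1.29 TPM and 2.32 TPM, and the intervals of both overlapped. By counts, which are not divided by length, the full-length transcript led in replicate 2 with 353 counts against 126 for the short model, and the short model led in replicate 1 with 139 against 129. The leading Gata3 transcript therefore depends on the unit.

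Gata1 and Zfpm1 were each dominated by 1 model. The main Gata1 transcript held 99.9% of Gata1 TPM in replicate 1 and 99.99% in replicate 2, and another Gata1 model (ENSMUST00000125418), whose annotated start lies 10161 bases further upstream, had no count. The main Zfpm1 transcript held 99.7% of Zfpm1 TPM in replicate 1 and 97.2% in replicate 2. The noncoding Zfpm1 model of 865 bases (ENSMUST00000176690) was measured at 6.24 TPM for replicate 1 and 37.1 TPM for replicate 2, opposite in direction to the gene as a whole, with intervals of 4.68 to 7.81 TPM and 32.4 to 41.3 TPM that were apart.

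**Figure D4:**
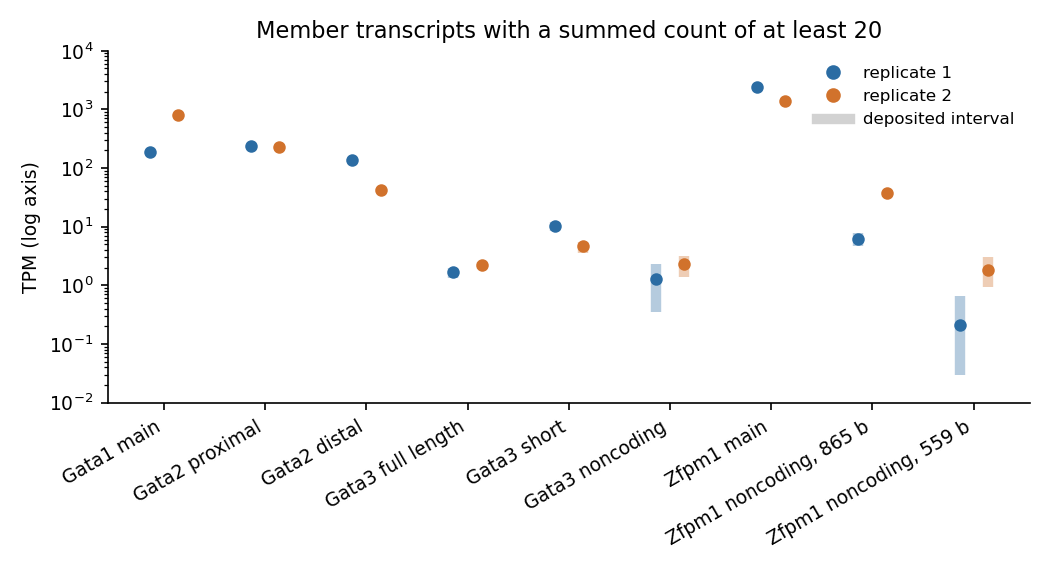
TPM on a log axis of the 9 member transcripts with a summed count of at least 20, with 1 point per library and bars for the deposited intervals. The main Gata1 transcript and the noncoding Zfpm1 models of 865 and 559 bases are higher in replicate 2. The distal Gata2, short Gata3 and main Zfpm1 transcripts are higher in replicate 1, all 6 with intervals apart.

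Sharing of fragments with other genes was small for the 4 detected members: the deposited posterior standard deviation of the gene count was 0 for each. It was also 0 for the other 4, but with at most 1 count in a library this says little about sharing. Whether the counting used strand is not given in the sources used here, which bears on genes that overlap a member. Gata3 overlaps 3 annotated genes, of which Gm13256 and 4930412O13Rik had no count, and 9230102O04Rik, on the same strand, had 6 counts in replicate 1 and 72 in replicate 2. Gata5os, 1010001N08Rik at Gata6 and Gm20388 at Zfpm1 had no count, and Gm49524, Gm49525 and Gm49526 at Zfpm2 were not analysed here. In M21 no gene overlaps Gata1, Gata2 or Gata4.

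Other genes encode GATA-type zinc fingers without belonging to the GATA family proper. Of 9 such genes, 7 reached 1 TPM in both libraries. Mta1, a subunit of the NuRD corepressor complex, was highest, with 328 TPM and 310.3 TPM in replicates 1 and 2, followed by the corepressor gene Rere at 256 and 266 TPM. Mta3 stood at 96.3 and 129 TPM, Mta2 at 126 and 67.6 TPM, and Gatad1 at 120.2 and 60.1 TPM. Gatad2a and Gatad2b, which encode the p66 subunits of NuRD, stood at 40.6 and 58.4 TPM and at 4.24 and 2.43 TPM. Zglp1 was just under the threshold at 0.97 and 0.96 TPM, and Trps1 had no count. Of the 8 tested, 3 were called higher in replicate 1 and 4 in replicate 2, where 81.0% of all genes were called in either direction. None was 2-fold apart (1 with total counts), against 26.9% of all genes, and the median log2 ratio was 0.21 against -0.002 over all genes.

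FOG1 is known to recruit the NuRD and CtBP corepressors through separate parts of the protein. All 15 genes of this list, which shares Mta1, Mta2, Mta3, Gatad2a and Gatad2b with the preceding one, reached 1 TPM in both libraries. The highest mean belonged to Ctbp1 at 451 TPM in replicate 1 and at 264 TPM in replicate 2, and the lowest to Gatad2b. By scaled counts 10 were called higher in replicate 1 and 5 in replicate 2, against 40.2% and 40.7% of all genes. With TMM factors set by all genes the counts were 8 and 5, against 37.4% and 43.3%. The list had a median log2 ratio of -0.23. The histone deacetylase genes went opposite ways. Hdac1, at 34.9 and 69.9 TPM, was 2.47-fold higher in replicate 2 by scaled counts and 1.97-fold by TPM with a pseudocount of 1. Hdac2, at 100.7 and 35.0 TPM, was 2.36-fold higher in replicate 1 by scaled counts and 2.82-fold by TPM. Mbd2, which encodes the methyl-DNA binding subunit of one form of NuRD, stood at 521 and 186 TPM. It was 2.13-fold higher in replicate 1 by scaled counts and 2.79-fold by TPM.

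All 15 genes of the list of GATA1 partners, coactivators and modifiers also reached 1 TPM in both libraries. Lmo2, the bridging subunit of the complex of GATA1 with TAL1 and LDB1, was highest at 1291 TPM in replicate 1 and at 657 TPM in replicate 2. Crebbp, an acetyltransferase that modifies GATA1, was lowest at 5.24 and 8.90 TPM. It was 2.09-fold higher in replicate 2 by scaled counts and 1.59-fold by TPM with a pseudocount of 1. Hspa8, a chaperone gene at 442 and 822 TPM, was 2.81-fold higher in replicate 2 by scaled counts and 1.86-fold by TPM. Of the 15, 6 were called higher in each library, against 40.2% and 40.7% of all genes. With total counts 8 were called higher in replicate 1 and 4 in replicate 2, against 45.2% and 36.6%. Under that scaling Crebbp was under 2-fold, and Tal1 was at least 2-fold higher in replicate 1. The number at least 2-fold higher was then 1 in each library, against 0 in replicate 1 and 2 in replicate 2 with TMM factors. The list had a median log2 ratio of -0.02. The native estrogen receptor genes were at the limit of the data, with 0 and 4 counts for Esr1 and none for Esr2.

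**Figure D5:**
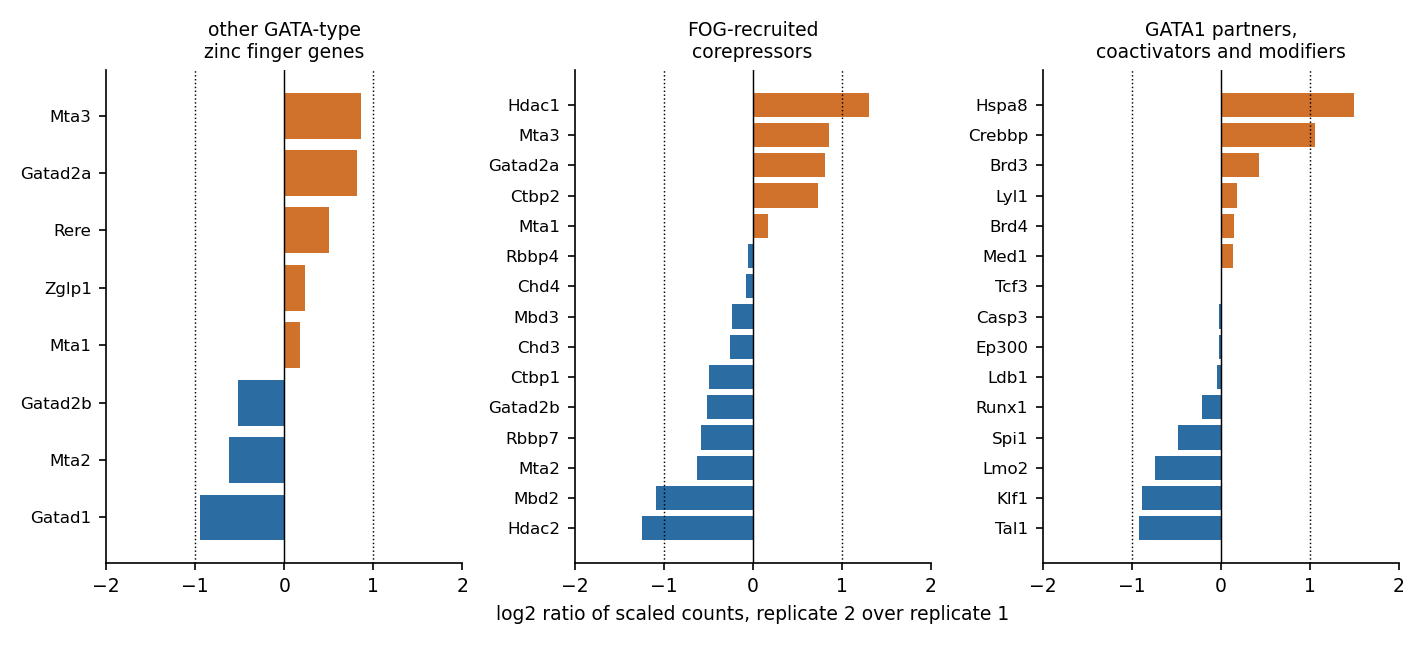
Log2 ratio of scaled counts, replicate 2 over replicate 1, for the tested genes of 3 lists, with orange bars for genes higher in replicate 2, blue bars for genes higher in replicate 1 and dotted lines at 2-fold. Hdac2 and Mbd2 pass 2-fold on the left, and Hdac1, Hspa8 and Crebbp pass it on the right.

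The genes whose levels in the 2 libraries lay nearest to those of each member were found by distance in log2(TPM + 1), a likeness over 2 libraries only. Nearest to Gata1 were Rpl10 at 206 and 907 TPM, Pa2g4, Anp32e, Rps18 and Ndufv3, at distances of 0.22 to 0.57. Nearest to Gata2 were Mark2 at 371 and 276 TPM, Arpc4, Asap1, Runx1 and Eif3h, at 0.029 to 0.086. The genes nearest to Gata3 were Card19, Chfr, Copb1, Uggt1 and Jmjd4, at 0.010 to 0.030. Nearest to Zfpm1 were Pabpc1 at 2590 and 1301 TPM, Dek, Sf1, Ranbp1 and Srsf2, at 0.17 to 0.21.

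Markers of neighbouring blood lineages in which GATA1, GATA2 and FOG1 also act were read beside these levels. Of 6 mast cell markers only Kit, the stem cell factor receptor gene, reached 1 TPM in both libraries, at 20.5 TPM in replicate 1 and at 46.8 TPM in replicate 2, and the protease genes Mcpt4, Cma1 and Tpsb2 had no count. Of 7 megakaryocyte markers, Gp5, Gp1ba and Itga2b reached 1 TPM in both. The sum of the list was 178 TPM for replicate 1 and 153 TPM for replicate 2. By scaled counts Gp1ba was called 4.42-fold higher in replicate 2. Gp5, the highest of the list at 148 and 69.8 TPM, was called 1.74-fold higher in replicate 1 by scaled counts. Ppbp had no count. The globin sum was higher in replicate 2, as Gata1 was. The sum of the other 8 red cell markers was lower in replicate 2, but most of them singly were not. By scaled counts 5 of these 8 were called higher in replicate 2, and 2 (Klf1 and Tfrc) in replicate 1. Over all genes tested 40.7% and 40.2% were so called. The part of differentiation state in the Gata1 difference was not tested.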

How the data were processed

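Expression was read from a gene table and a transcript table for each of 2 libraries. Per the accompanying text, reads were aligned to mm10 and quantified on annotation M4. Names of the aligner and quantifier were not given in the sources used here. Per the file headers, the deposited expected counts are estimated fragments per gene or transcript. The deposited TPM and FPKM values were scaled by the authors to length and library. The interval bounds, deposited with TPM by the authors, were treated as signal values. The percent of a gene's TPM held by each transcript was also deposited by the authors.

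Members were matched by identifier through a symbol table (42462 of 43346 mouse genes matched). Expected counts were rounded, and genes with a summed count of at least 20 were tested by an exact binomial test on TMM-scaled library sizes (edgeR 4.0.16, R 4.3.3, scipy 1.17.1), with Benjamini-Hochberg adjustment at 0.05 and a prior count of 2 in ratios. With 1 library on each side edgeR's own test has no residual degrees of freedom. TMM factors were set by the genes tested. Factors set by all genes with a count were tried as well, and this alternative was chosen after seeing the data. The test was tried on simulated counts that held only counting error and set changes in some genes. Other variation between libraries was not simulated, so the trial does not cover it.

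The rule for names covered all members and their transcripts (those without a count are given by number), the highest and lowest gene of each context list, every GATA-type zinc finger gene, genes of these lists at least 2-fold apart, the 5 nearest genes of each detected member, and overlapping genes. Other names were chosen after their values were seen. The members and lists were chosen with earlier results of these data known. Coordinates and transcript names came from GENCODE M21 on GRCm38 and promoter windows from RefSeq on GRCm38.p6; M4 was not used here.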

Additional observations from a re-analysis of the deposited data

How the results depend on the processing

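Of 76 values under alternatives, 72 stayed within 1 SD of the 2 libraries, within 1.5 times a count, or on the same side of the test's threshold with the same direction, 3 moved and 1 reversed. With 2 libraries each value lies within 1 SD of their mean by construction, so the 20 values with 1 library left out say nothing about stability: the level of Gata1, for example, went from 495 TPM to 190.3 or 799 TPM. The number of members apart rose from 1 to 4 when non-overlap of the deposited TPM intervals replaced the 2-fold rule. The share of the most abundant transcript moved from 99.95% to 99.89% for Gata1 with posterior mean values, and from 63.8% to 35.7% for Gata3 by expected counts. The log2 ratio of Gata3 turned from 0.16 to -0.50 on TPM with a pseudocount of 1. The mean log2 ratio of Gata1 to Gata2 turned from 0.29 to -0.51 in expected counts, and ranged from -0.97 to 1.56 with 1 library left out.

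The counts of 3 called members and 1 member at least 2-fold apart held under DESeq2 size factors, total counts, both other filters, posterior mean counts and, as an alternative chosen after seeing the data, TMM factors set by all genes with a count. Under those last factors Gata1 had a log2 ratio of 2.41 and Gata3 an adjusted p of the exact test of 0.052, close to the threshold. Total counts moved the median log2 ratio of all genes from -0.002 to -0.11 and the share of calls that were higher in replicate 2 from 50.3% to 44.7%, and each member moved with it.

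With 1 library left out there is no call between libraries to recompute. No paired analysis was possible because there is only 1 group. With 2 libraries, differences between members' levels were not tested, and levels under the limit that a count of 0 allows were not detectable.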
